A study of Mus musculus with 2 samples.

Results

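Neutrophils are short-lived granulocytes that are made in bone marrow, circulate in blood and enter tissues along chemokine gradients. They fill their granules in stages during maturation: azurophil granules are loaded first, specific granules next and gelatinase granules last, so granule transcripts mark stages of maturation. In the cytosol they carry large amounts of S100a8 and S100a9, the 2 subunits of calprotectin, which binds calcium and withholds metal ions from microbes. Among the CD45+ cells of the adrenal gland they formed a small class: 84 of the 6319 cells that passed the quality filters were neutrophils, 39 in the female and 45 in the male library.

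The cells were chosen by their raw UMI counts (unique molecular identifiers, one per captured transcript molecule). A neutrophil had at least 20 UMIs of S100a8 and S100a9 together, at most 2 UMIs of the complement genes C1qa, C1qb and C1qc, and no UMI of the B cell gene Cd79a or the T cell gene Cd3e, in a barcode with at least 200 genes and at most 15% mitochondrial UMIs. The levels of these 7 genes are therefore a description of the choice and not a result. The class of comparison, 658 monocytes (428 female, 230 male), had fewer than 20 S100a8 and S100a9 UMIs, at least 2 UMIs of Lyz2 and at least 2 UMIs of Ace, Treml4, Adgre4, Chil3 and Ly6c2 together. The other 5577 cells are called the rest.

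The study set out to describe leukocyte diversity in the adrenal glands of both sexes, with a focus on macrophages. Live CD45+ cells (CD45 is the surface protein of leukocytes) were sorted from the glands of 7-week-old wild-type C57BL/6 mice, for which no treatment is named, and captured in droplets, with 1 library from females and 1 from males. The number of animals behind each library is not given in the sources used here, and with 1 library per sex the sex and the library cannot be told apart. No p-value is given, since cells of 1 library are not replicates, and all intervals are 95% intervals that cover counting error only.

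In the female library 39 of 3817 cells were neutrophils, or 1.02% (exact binomial interval 0.728 to 1.39%). The male library held 45 among 2502, or 1.80% (1.31 to 2.40%). Female minus male, the shares differed by -0.777 percentage points (Newcombe interval -1.44 to -0.192). By flow cytometry, the paper describes neutrophils as scarce in the gland and reports similar neutrophil counts in females and males. Those are cell counts, while the values here are shares of the kept cells of a single library per sex. Whether the difference in share holds beyond these libraries was not tested. Of the cells with at least 20 UMIs of S100a8 and S100a9, the other conditions set aside 8 of 47 female and 3 of 48 male ones. The shares with those cells were not computed. There were 10.97 monocytes per neutrophil in the female library and 5.11 in the male library. With a mitochondrial ceiling of 5% the share was 0.912% in the female and 1.88% in the male library. With a ceiling of 1.2%, the value named in the methods but perhaps on another scale, it was 4.89% of 327 female and 5.57% of 359 male cells. The interval of the difference then ran from -4.10 to 2.81 points. The paper reports far more cells per library after its own filters than this ceiling kept here. The threshold on S100a8 and S100a9 fell in a sparse stretch of the counts. The lowest members held 22, 32 and 53 UMIs in the female and 24, 25 and 38 in the male library, and the highest cells below the threshold that met the other conditions held 19 and 11 in the female and 12 and 11 in the male library.

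Neutrophils held less RNA than the other classes, as counted here. Their median was 1754 UMIs and 713 genes in the female library (547 to 5592 UMIs) and 1705 UMIs and 785 genes in the male library (545 to 5374 UMIs), against 4090 and 3662 UMIs in monocytes. In total 71151 female and 83762 male UMIs stand behind the neutrophil levels. No member shared its cell barcode with the other library, and 2 barcodes of all were shared. The libraries carried Xist, the transcript of the inactive X chromosome, in 8 of 39 female neutrophils and in 0 of 45 male ones.

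One female member stood apart and is named here because it bears on the comparison of the sexes. It held 5592 UMIs and 2250 genes, where the next female neutrophil had 1091 genes, and 24.98% of its UMIs came from ribosomal protein genes against a median of 4.05% over female neutrophils. It carried 54 UMIs of S100a8 and S100a9 and 4 of Csf3r beside 14 of Ccl5, 8 of Il7r, 5 of Xcl1 and 3 of Trbc2, which are lymphocyte genes. A doublet score marked this 1 cell among the 84. It was kept because the rule admits it, and the values found to move without it are given both ways.

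The transcripts that define a neutrophil and that the rule did not use were present in most cells. Csf3r, the receptor for the growth factor G-CSF, had a UMI in 33 of 39 female (84.6%, 69.5 to 94.1%) and 37 of 45 male neutrophils (82.2%, 67.9 to 92.0%), with a median of 3 UMIs per female and 4 per male cell. Cxcr2, the chemokine receptor that draws neutrophils out of marrow and into tissue, had one in 34 female and 38 male cells, with a median of 2 UMIs in both libraries. Both genes were nearly absent from lymphocytes, here cells of the rest with a Cd3e or Cd79a UMI, at most 2 C1q UMIs and fewer than 20 of S100a8 and S100a9. In these 1245 female and 628 male cells, whose median depth was 3279 and 2744 UMIs, Csf3r was detected in 0.482% and 0.796% and Cxcr2 in 0.0803% and 0.318%, in spite of the greater depth. Markers left out of the rule thus went with the label.

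Depth limits such shares, so they were also computed as the share expected when 500 UMIs are drawn from each cell, a depth that every neutrophil reached. On that scale Csf3r was detected in 56.3% of female and 61.4% of male neutrophils, and Cxcr2 in 49.8% and 50.03%. The same draw gave 3.73% and 3.67% for Csf3r in female and male monocytes and 0.104% and 0.0620% for Cxcr2.

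Other products of mature neutrophils were found in most cells for some genes and in few for others. Retnlg, a secreted resistin-like protein of granulocytes, was found in 35 female and 38 male cells, but its count ranged from 0 to 242 UMIs per female cell (median 8) and from 0 to 202 per male cell (median 4). Mmp9, the gelatinase of the last granules to form, was found in 35 of 39 and 44 of 45 cells. Hp (haptoglobin) was found in 38 and 34 cells. Mmp8, a collagenase of specific granules, was found in 41 and Il1r2, the decoy receptor for IL-1, in 19 of all 84 cells, and Cd177, a surface protein of neutrophils, in 13. Ly6g, whose protein is the usual surface marker of mouse neutrophils, was found in only 7 female and 5 male cells.

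**Figure D1:**
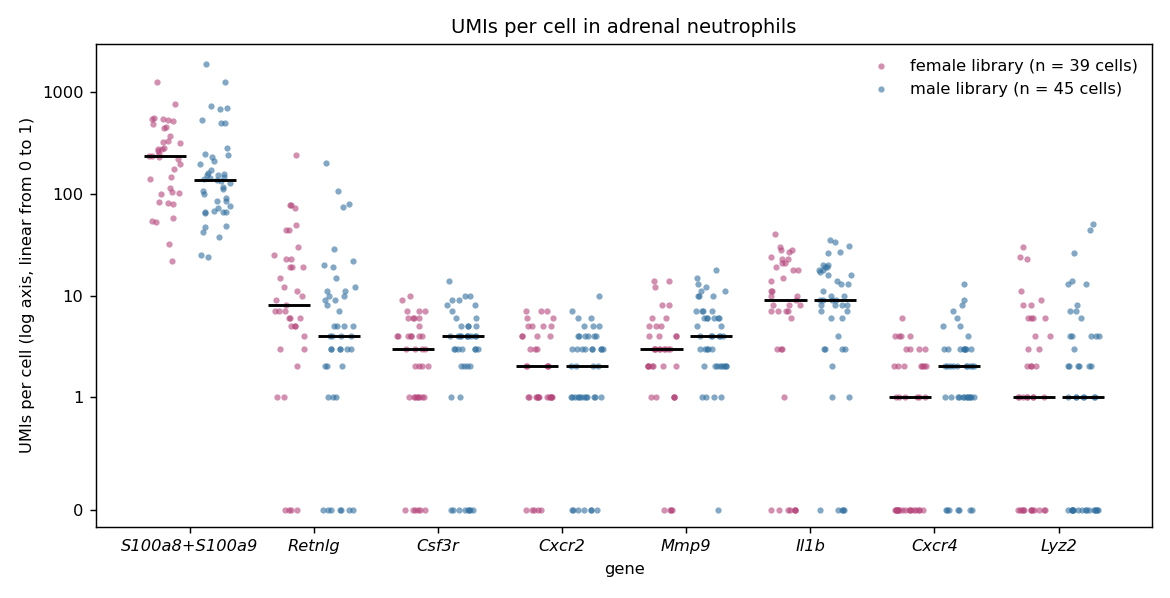
UMIs per cell (log axis, linear between 0 and 1) of S100a8 and S100a9 together and of 7 other genes in the 39 female and 45 male neutrophils, with 1 point per cell, horizontal jitter and a black bar at the median of each library. The sum of S100a8 and S100a9 chose the cells and reaches 1281 UMIs in the female and 1885 in the male library, while Csf3r, Cxcr2 and Mmp9 sit at medians between 2 and 4 UMIs and each gene outside the rule is at 0 in some cells.

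S100a8 and S100a9 themselves took a median of 14.97% of the UMIs of a female neutrophil (0.966 to 33.3%) and 8.13% of a male one (2.205 to 35.1%). The lowest female share is that of the 2250-gene cell, and without it the lowest was 3.97%. S100a8 ranged from 13 to 642 UMIs in female and from 5 to 922 in male cells, and S100a9 from 9 to 639 and from 15 to 963. Lymphocytes, a class that should lack S100a8, held a UMI of it at a rate of 2.57% of cells in the female and 2.87% in the male library. The genes lie near each other on chromosome 3, and their promoters are shown because the rule rests on these transcripts. Each window runs from 250 bases before to 50 bases after the start of the gene in the direction of transcription, as RefSeq gives it on GRCm38.p6: chr3:90668821-90669120 on the plus strand for S100a8 and chr3:90695672-90695971 on the minus strand for S100a9. Capitals mark matches on either strand to 2 motifs that do not overlap here, TTGCNNAA (read on the other strand TTNNGCAA), the core bound by C/EBP factors of the granulocyte lineage, and GAGGAAG or its reverse complement, a site of the myeloid factor PU.1. Of 32851 promoters of this length in mouse, 10.8% held the first and 13.6% the second motif.
S100a8: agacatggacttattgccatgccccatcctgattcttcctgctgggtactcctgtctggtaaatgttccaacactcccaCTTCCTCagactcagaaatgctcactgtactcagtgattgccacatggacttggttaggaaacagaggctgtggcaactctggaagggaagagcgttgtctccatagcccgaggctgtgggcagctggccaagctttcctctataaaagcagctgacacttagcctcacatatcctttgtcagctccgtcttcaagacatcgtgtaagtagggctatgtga
S100a9: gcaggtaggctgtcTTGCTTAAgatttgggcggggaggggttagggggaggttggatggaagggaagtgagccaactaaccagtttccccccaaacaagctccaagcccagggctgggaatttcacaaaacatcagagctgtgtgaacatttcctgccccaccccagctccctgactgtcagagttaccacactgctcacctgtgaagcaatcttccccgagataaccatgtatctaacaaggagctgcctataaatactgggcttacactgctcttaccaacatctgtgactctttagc
The S100a8 window held 1 match to the reverse complement of the PU.1 motif, 171 bases before the start, and the S100a9 window 1 match to the C/EBP motif, 236 bases before the start. A match is a description of the letters and not a measured site.

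Neutrophils were next set against the cells chosen as monocytes, in each library on its own. UMIs were summed per class and expressed as counts per 1000000 UMIs of the class (CPM). A gene was called when the ratio of CPM + 10 reached 4-fold in the same direction in both libraries, among 6106 genes with at least 20 UMIs in neutrophils or monocytes of each library. On this rule 153 genes (2.51%) were higher and 509 genes (8.34%) were lower in neutrophils. The median gene had a log2 ratio of -0.71 in the female and -0.69 in the male library, and 0 genes passed the fold in opposite directions. Without the 2250-gene cell 154 genes were higher and 645 lower. Of the 509 lower genes, 288 had no UMI in any neutrophil, so that the fold depends on the 10 CPM added. With 50 CPM added instead, 92 genes were higher and 118 lower. Since the rule separates the classes by myeloid transcripts, these values describe the contrast and carry no test. The monocyte class also held transcripts of other cells. Its 10 macrophage markers, the C1q genes included, stood at 14804 CPM in the female and 10566 CPM in the male library, against 11251 and 13311 CPM in the rest. Its 6 B cell markers stood at 5855 and 290.01 CPM, against 8141 and 4041 CPM in the rest, and the doublet score marked 39 female and 12 male monocytes. With all marked cells left out, 150 genes were higher and 620 lower. The part of these transcripts in single ratios was not tested.

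The 15 highest genes outside the rule were led by secreted and granule proteins. Retnlg stood at 12649 CPM in female and 8572 CPM in male neutrophils, against 4.68 and 0.980 CPM in monocytes, a ratio of 2704 (1464 to 5659) in the female library. Lcn2, the lipocalin that sequesters bacterial siderophores, stood at 1743 and 2495 CPM, from 124 and 209 UMIs, against 2 and 3 UMIs in all monocytes. Of these UMIs 23 and 122 lay in 1 female and 3 male cells rich in granule transcripts, and without those cells the smaller of the library ratios (CPM + 10) fell from 160 to 93.8. Wfdc21, a small whey acidic protein, stood at 1434 and 2256 CPM and had 1 UMI in the monocytes of each library. Ngp, Camp and Ltf, all specific granule proteins, belong to this group too, and nearly all their UMIs came from the same 4 cells, as described further on.

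Receptors, enzymes and regulators filled the other places among the 15. Cxcr2 stood at 1420 CPM in female and 1373 CPM in male neutrophils, a ratio to monocytes of 506 (224 to 1411) in the female library. Mmp9 had ratios of 174 (113 to 278) and 106 (71.4 to 162). Hdc, which makes histamine, stood at 1096 and 872 CPM and had 4 and 0 UMIs in monocytes. Il1f9, an interleukin of the IL-1 family also known as IL-36 gamma, stood at 492 and 573 CPM with no monocyte UMI, at least 351-fold and 195-fold higher when 3 counts per library are taken as the floor. G0s2, an inhibitor of the fat-cleaving enzyme ATGL, had ratios of 116 (77.2 to 180) and 85.3 (50.3 to 154). Ifitm1, an interferon-induced membrane protein, had ratios of 496 (220 to 1383) and 323 (122 to 1207), and Mxd1, a partner of Max that opposes Myc, 70.5 (43.9 to 116) and 64.1 (39.0 to 111). Stfa2l1 and Cstdc4, inhibitors of cysteine cathepsins, complete the list. They belong to a cluster of near-identical stefin genes on chromosome 16, so the counting could have split their reads among copies and their levels are uncertain.

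The lowest genes differed in what they are known for and in where else they were found. Fn1 (fibronectin) stood at 665 CPM in female and 1085 CPM in male monocytes and had no UMI in neutrophils, at least 15.8-fold and 30.3-fold lower against the floor of 3 counts. Ccr2, the receptor by which monocytes leave the marrow, had 1455 and 893 UMIs in monocytes and 0 and 1 in neutrophils. H2-DMb1, which helps to load MHC class II, was at least 5.56-fold and 9.44-fold lower. Also among them were Ms4a6b and Ms4a6c, Pou2f2 (the transcription factor Oct-2), Hpgd (which degrades prostaglandins), Lrp1 (an endocytic receptor) and Manf (a protein of the endoplasmic reticulum), with 0 to 2 UMIs each in the neutrophils of a library. Not all were monocyte genes: Manf stood at 155 and 174 CPM in lymphocytes against 218 and 203 CPM in monocytes, and Ms4a6b at 333 and 313 CPM against 514 and 402 CPM.

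**Figure D2:**
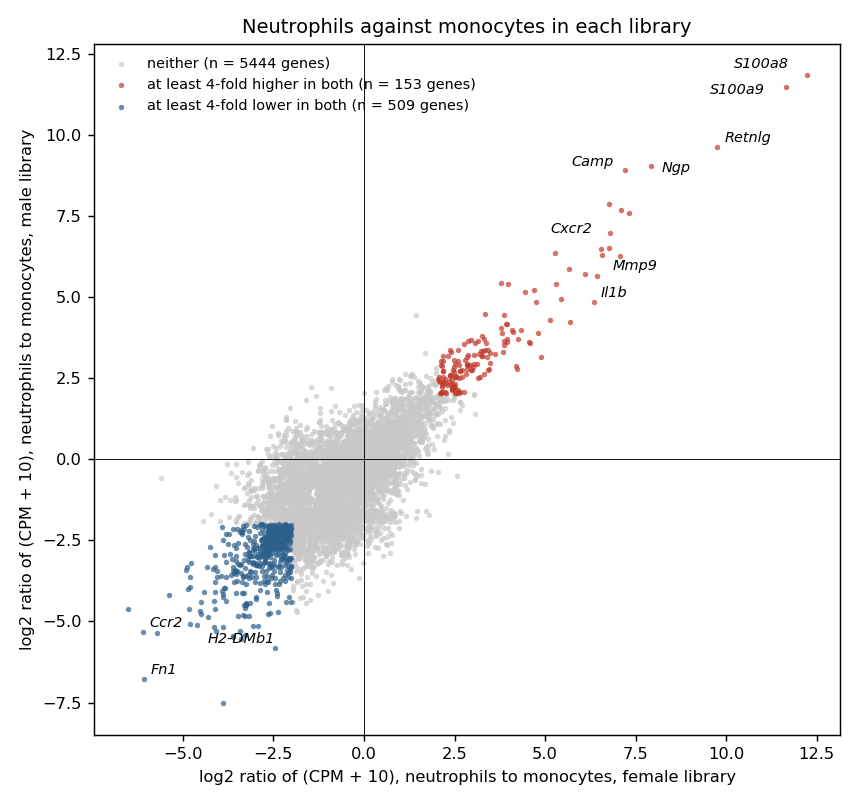
Log2 ratio of CPM + 10 in neutrophils to monocytes in the female (horizontal axis) and male library (vertical axis), with 1 point for each of 6106 genes. The 153 genes higher in both libraries (red) end at S100a8 and S100a9, which were part of the rule, and Retnlg, and the 509 lower genes (blue) include Fn1 and Ccr2.

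Granule transcripts were split by the stage at which the granule forms. Of the azurophil genes, Mpo, Elane, Ctsg and Ms4a3, products of promyelocytes, had no UMI in any of the 84 cells, and Prtn3 had 1 UMI in each library. Of 10 specific granule genes measured well enough to compare, 7 were called higher (Camp, Cd177, Hp, Lcn2, Ltf, Mmp8 and Ngp) and 0 lower, beside 2.51% and 8.34% of all genes, with a list median of 4.24 and 3.82 on the log2 scale in the female and male library. Ngp, Camp and Ltf owe their calls to 4 granule-rich cells described further on: without them the smaller of the library ratios (CPM + 10) was 2.38 for Ngp, 2.38 for Camp and 1.0 for Ltf, under the 4-fold rule. Of the 22 male Cd177 UMIs, 4, 5 and 6 lay in the 3 male granule-rich cells. The Cd177 ratios without those cells were not computed, so its call may rest on them too. The 3 genes not called were Cybb, Chil3 and Lyz2, and the latter 2 helped to define the monocytes. Of 4 gelatinase granule genes, Mmp9, Adam8 and Slpi (3 of 4, beside 2.51%) were called higher, and Itgam, the CD11b chain, had log2 ratios of 1.59 and 0.62. Of 6 NADPH oxidase genes 0 were called in either direction, beside 2.51% higher and 8.34% lower over all genes. Ncf1, a cytosolic subunit, had log2 ratios of 2.01 and 1.696, and Cybb, the membrane subunit, -2.06 and -1.72. Of the Cybb UMIs 35 lay in the 4 granule-rich cells and 17 in all other neutrophils. Its ratios without those cells were not computed, so the absence of a call for Cybb may depend on them.

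The other cytosolic proteins of this family divided. Of 8 S100, annexin and stefin genes, 6 were called higher and S100a4 was called lower, and among the 6 genes that were not part of the rule the counts were 4 and 1, beside 2.51% and 8.34% of all genes. S100a11 stood at 7997 and 6339 CPM against 542 and 501 CPM in monocytes, and S100a6 at 9670 and 9097 CPM against 1726 and 1923 CPM. S100a4 had 7 UMIs in female and 0 in male neutrophils, against 1595 and 1833 CPM in monocytes.

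Receptors that guide neutrophils came next. Of 8 chemoattractant receptors, Cxcr2, C5ar1, Ccr1 and Fpr2 were called higher and the complement receptor C3ar1 lower, against background shares of 2.51% and 8.34% over all genes. Fpr2, a receptor for formylated peptides, stood at 436 and 251 CPM against 14.5 and 25.5 CPM. Cxcr4, which retains neutrophils in marrow and marks ageing ones, missed the fold in the female library, with log2 ratios of 1.99 and 2.81. Of 11 cytokine receptors only Csf3r was called, in the higher direction, at 1757 and 2125 CPM against 55.7 and 63.7 CPM. Il1r2 held too few UMIs to be compared by the rule, with 15 in female and 26 in male neutrophils and 3 and 2 in monocytes.

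Of 13 receptors for microbial patterns and antibodies, 5 were called higher and 0 lower, where 2.51% and 8.34% of all genes were. Trem1, which amplifies inflammatory signals, stood at 379 and 585 CPM against 5.15 and 5.88 CPM, and Clec4d and Clec4e, lectins for fungal and mycobacterial lipids, had log2 ratios of 3.87 and 4.45 and of 2.77 and 3.56. Pira2 and Trem3 were the other 2. Of 11 adhesion molecules 2 were called higher and 0 lower, beside the same shares. One of them is Cd177, counted above with the specific granules, with log2 ratios of 2.48 and 2.69 that rest in part on the granule-rich cells. The integrin chains Itgb2 and Itgal, which both classes use, had log2 ratios of 0.35 and -0.26 and of 0.44 and -0.31.

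Several inflammatory mediators were higher than in monocytes. Il1b, the cytokine IL-1 beta, stood at 6578 CPM in female and 5981 CPM in male neutrophils against 71.6 and 199.9 CPM in monocytes. It had a UMI in 32 of 39 and 40 of 45 neutrophils, with a median of 9 UMIs in both libraries and a maximum of 40 and 35. In lymphocytes, cells that do not make it, 0.803% and 1.43% held one. Of 12 chemokines and cytokines 6 were called higher: Il1b, Cxcl2, Osm, Il1rn, Nlrp3 and Ptgs2. Ccl9 was called lower. Over all genes these shares were 2.51% and 8.34%. Osm, a cytokine of the IL-6 family, stood at 914 and 633 CPM against 11.2 and 10.8 CPM, and Il1rn, the natural antagonist of IL-1, at 351 and 275 CPM against 8.89 and 11.8 CPM. Cxcl1, Cxcl3 and Il1a had no UMI in any neutrophil, and Tnf had 1.

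Transcription factors and survival genes were mixed, and their counts stand beside 2.51% higher and 8.34% lower over all genes. Of 13 transcription factors, Fos, Junb, Cebpd and Mxd1 were called higher and Irf8 and Klf4, which favour monocytes, lower. Junb stood at 5819 and 8190 CPM against 326 and 537 CPM. Spi1, which encodes PU.1 and serves both lineages, had log2 ratios of 1.10 and 0.91. Of 10 survival genes Mcl1, on which neutrophils depend, Pim1, Btg1 and Btg2 were called higher and Bcl2a1d lower.

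The adrenal gland makes glucocorticoids, so their targets were counted as a list, beside which 2.51% of all genes were higher and 8.34% lower. Of 7 genes, Dusp1 was called higher, at 8784 and 9288 CPM against 564 and 704 CPM, and Klf9 was called lower. Tsc22d3, which encodes the glucocorticoid-induced leucine zipper, had log2 ratios of 1.597 and 2.26, and Fkbp5 ratios of -0.87 and -0.91 from 3 and 1 UMIs. The list median was 0.30 and 0.89, against -0.71 and -0.69 over all genes. The other lists of metabolism and response stand beside the same shares. Of 12 interferon-stimulated genes only Ifitm1 was called higher and 0 were lower. Of 7 lipid mediator genes Alox5, which starts leukotriene synthesis, and Ptgs2 were called higher, and of 9 glycolysis and glycogen genes Slc2a3, a glucose transporter, and Pygl, which breaks down glycogen.

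At the other end, all 5 MHC class II genes were called lower and of 6 proliferation genes 3 (Pcna, Stmn1 and Tubb5) were called lower and 0 higher, against 8.34% and 2.51% of all genes. Cd74 stood at 478 and 167 CPM against 5998 and 7830 CPM in monocytes. Mki67 and Top2a had no UMI in any neutrophil. Ribosomal protein genes were low as a group: of 83, 42 were called lower and 0 higher, with a median log2 ratio of -2.06 in the female and -2.68 in the male library. Without the 2250-gene cell 66 were called lower and 0 higher, with a female median of -2.69. In contrast, 12 mitochondrial transcripts had a median of -0.01 and -0.09 and 0 calls. Per cell, ribosomal protein genes took a median of 4.05% of the UMIs of female and 3.58% of male neutrophils, against 20.8% and 19.0% in monocytes and 26.0% and 21.7% in the rest.

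**Figure D3:**
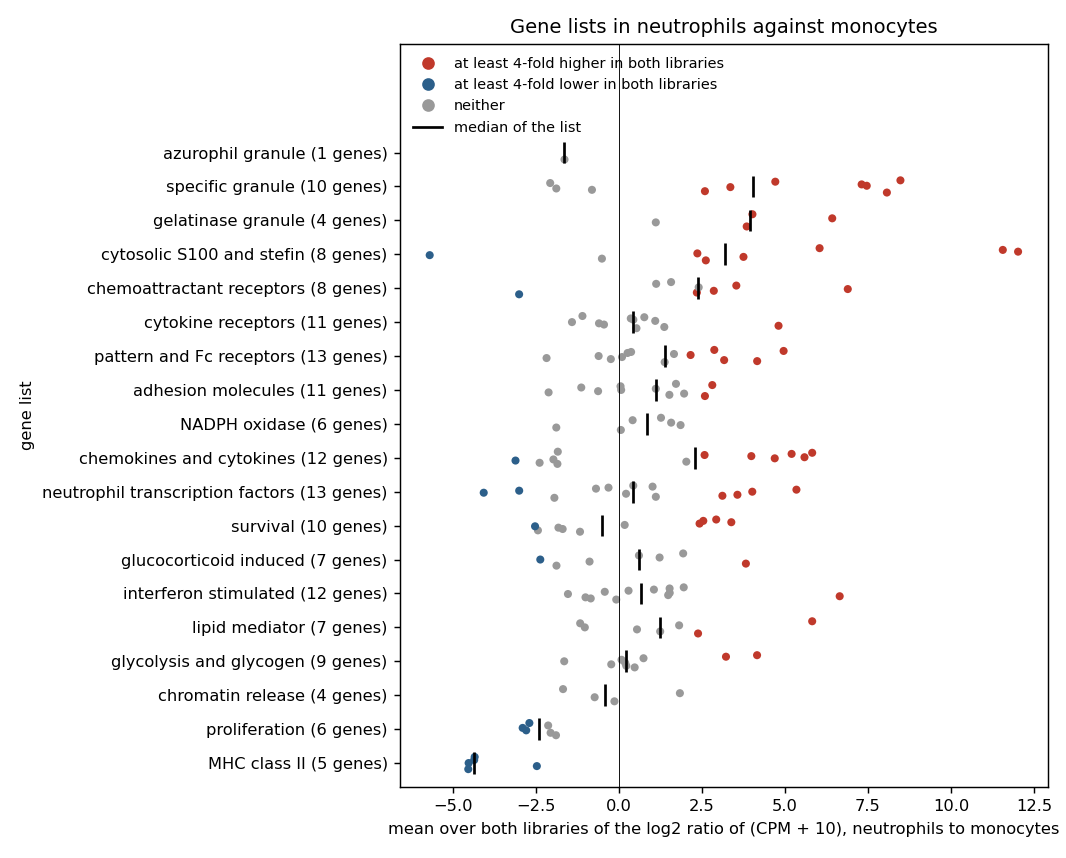
Log2 ratio of CPM + 10 in neutrophils to monocytes, averaged over both libraries, for the compared genes of 19 lists, with 1 point per gene and a black bar at the median of each list. The S100 list runs from S100a8 on the right to S100a4 on the left, all 5 MHC class II genes lie left of 0, and a gene that belongs to 2 lists is drawn in both.

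Markers of other cells in the sort were counted over the same neutrophils. Dendritic cell markers (Flt3, Xcr1, Clec9a, Cd209a, Zbtb46 and Siglech) had 0 UMIs in both libraries. Macrophage markers without the C1q genes had 78 UMIs in 26 of 39 female and 41 UMIs in 23 of 45 male cells, at 1096 and 489 CPM against 7951 and 8177 CPM in the rest, and Mrc1, Folr2 and Mertk were at 0. Apoe alone supplied 68 of the female and 20 of the male UMIs, and the other 6 genes 10 and 21. Monocyte markers had 27 and 43 UMIs, with Ace, Adgre4, Fn1 and Eno3 at 0. T cell markers had 4 female UMIs, 3 of them in the 2250-gene cell, and 0 male UMIs. B cell markers without Cd79a had 21 and 10 UMIs, at most 2 in a cell, NK cell markers 15 and 9, and markers of mast cells and basophils 4 and 0. Eosinophil markers, which would show the nearest granulocyte, had 1 and 4 UMIs with Prg2, Epx and Il5ra at 0. From these few UMIs they stood at 14.1 and 47.8 CPM, above the 6.86 and 3.41 CPM of the rest. Markers of red cells and platelets had 5 and 4 UMIs, endothelial markers 1 and 1, and markers of adrenal endocrine cells 13 and 14. The endocrine markers stood at 183 and 167 CPM, above the 99.1 and 129 CPM of the rest, and 7 of the male UMIs lay in 1 cell. The part of all these markers in the results was not tested.

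Most of the specific granule signal came from 4 cells. Camp, Ngp and Ltf, which encode cathelicidin, neutrophilic granule protein and lactoferrin, together had 1405 UMIs over the 84 neutrophils, and 98.5% of them lay in 1 female and 3 male cells (4.76% of neutrophils, 1.31 to 11.7%). The female cell held 350 UMIs of the 3 genes and the male cells 467, 313 and 254. The next cells held 15 in the female and 2 in the male library, and 4 other female cells and 1 other male cell held any. These granule-rich cells, defined after their values were seen as those with at least 50 UMIs of the 3 genes, are described with no test.

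The promoters of the 3 genes, all on chromosome 9, are shown because their transcripts moved together from cell to cell. The windows and capitals are as above, at chr9:109849407-109849706 (minus strand) for Camp, chr9:110419558-110419857 (plus strand) for Ngp and chr9:111019042-111019341 (plus strand) for Ltf.
Camp: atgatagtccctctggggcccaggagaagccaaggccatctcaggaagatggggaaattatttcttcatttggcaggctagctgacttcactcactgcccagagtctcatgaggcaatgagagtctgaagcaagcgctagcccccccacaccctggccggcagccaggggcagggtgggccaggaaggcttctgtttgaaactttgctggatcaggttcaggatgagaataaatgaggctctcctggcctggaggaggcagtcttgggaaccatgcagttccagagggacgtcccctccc
Ngp: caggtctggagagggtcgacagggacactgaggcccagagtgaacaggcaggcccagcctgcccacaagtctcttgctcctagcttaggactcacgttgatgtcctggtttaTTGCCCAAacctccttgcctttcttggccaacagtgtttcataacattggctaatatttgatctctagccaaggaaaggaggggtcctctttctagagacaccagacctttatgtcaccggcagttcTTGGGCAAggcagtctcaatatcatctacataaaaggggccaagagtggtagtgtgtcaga
Ltf: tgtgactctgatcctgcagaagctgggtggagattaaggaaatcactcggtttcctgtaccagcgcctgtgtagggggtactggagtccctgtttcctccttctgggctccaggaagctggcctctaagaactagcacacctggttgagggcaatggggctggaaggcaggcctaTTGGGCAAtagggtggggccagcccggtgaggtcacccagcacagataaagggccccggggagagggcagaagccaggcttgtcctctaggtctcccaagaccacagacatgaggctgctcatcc
Ngp held 2 matches to the C/EBP motif, 138 and 11 bases before the start, and Ltf 1, 75 bases before. Camp held neither motif, which says only that these letters are not in this window.

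The granule-rich cells also differed in other genes. Compared were 409 genes with at least 20 UMIs in these 4 cells or 50 in the 80 others. By the ratio of CPM + 50, 13 were at least 4-fold higher, Camp, Ngp and Ltf included, and 106 at least 4-fold lower. The limit of 20 UMIs stands for 1374 CPM in the 4 cells, and that of 50 UMIs for 356 CPM in the 80 others. Genes low in the 4 cells thus entered more readily, so the 2 counts cannot be set against each other. The 4 cells had 0 UMIs of Csf3r, Il1b, Junb, Cxcl2, Btg2 and Srgn, where 70, 72, 79, 38, 65 and 76 of the 80 other neutrophils held at least 1. Other neutrophil genes were present. Mmp9 was found in all 4, at 2817 against 2472 CPM. Cxcr2 and Retnlg were found in 3 of the 4, at 344 against 1503 CPM and 1718 against 11349 CPM. Dusp1 was in 2 of the 4 and in all 80 others. Ly6g had 33 UMIs in these 4 cells and 15 in the 80 others, in which it was found in 8. Chil3 was at 4810 CPM against 78.4 CPM, Cybb at 2405 against 121 CPM, and Lcn2 at 9963 against 1339 CPM. Cebpe, the transcription factor that switches on specific granule genes, was found in each of the 4, with 1 to 6 UMIs. Markers of division (Mki67, Top2a, Stmn1) and the azurophil genes Mpo, Elane and Prtn3 were at 0 in all 4, which held 2737 to 5374 UMIs each.

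**Figure D4:**
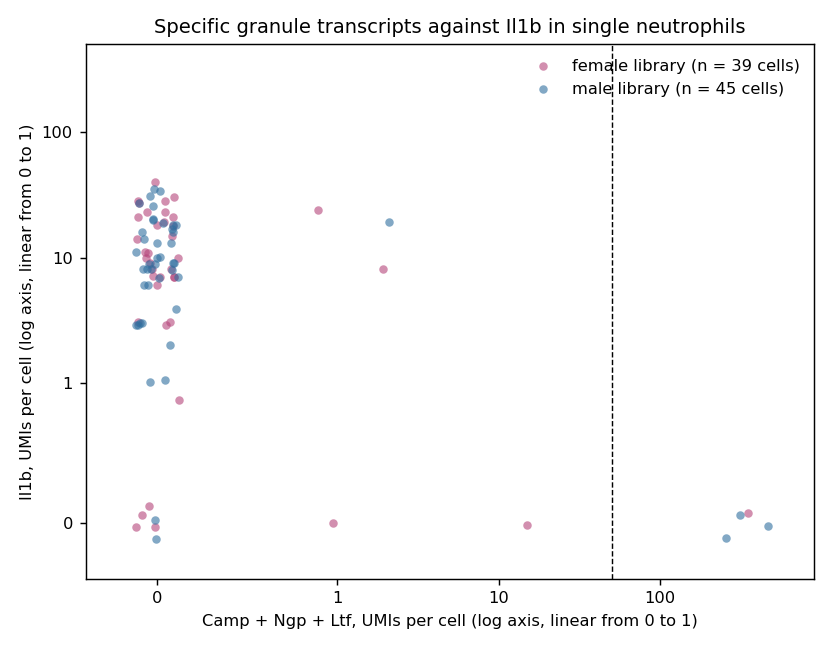
UMIs of Camp, Ngp and Ltf together (horizontal axis) against UMIs of Il1b (vertical axis) in each of the 84 neutrophils (both log axes, linear between 0 and 1, with jitter), and a dashed line at 50 UMIs. The 4 granule-rich cells to the right of the line hold 254 to 467 granule UMIs and 0 of Il1b, while 72 of the 80 others hold Il1b.

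The 80 other neutrophils varied along further lines. In a draw of 500 UMIs per cell, S100a8 and S100a9 together had a median of 67 UMIs in the 38 female cells and 36 in the 42 male cells. The stefins were patchy: Stfa2l1 was found in 21 and Cstdc4 in 22 of the 80 cells, and 10 cells held both, which is 47.6% of the first and 45.5% of the second. Cxcl2 and Ptgs2 were found in 38 and 25 cells and together in 15, or 39.5% and 60.0%, and the cells with both had a median of 2041 UMIs against 1661.5 over all 80.

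Female and male neutrophils were compared last, on 439 genes with at least 50 UMIs over both libraries and a ratio of CPM + 50 of at least 2-fold. On this rule 11 genes were higher in the female library (2.51%) and 7 were lower (1.59%), and with at least 20 UMIs per gene the counts were 32 and 32. Of the 11, 9 were ribosomal protein genes, and the others were Apoe and Tmsb10. Without the single 2250-gene cell, which supplied 33.9% of the ribosomal protein UMIs of female neutrophils, 3 genes were higher and 0 of them ribosomal: Apoe, Lrg1 and Fosl2. Tmsb10, an actin-binding peptide, had 54 female UMIs, of which 41 lay in that cell, and its ratio (CPM + 50) turned from 2.69 to 0.826 without it.

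Apoe, the lipid carrier of macrophages, stood at 956 CPM (742 to 1212) in female and 239 CPM (146 to 369) in male neutrophils, a ratio of 4.00 (2.40 to 6.96). It was found in 24 of 39 and 14 of 45 cells, or 31.0% and 12.6% at 500 UMIs, and in 11.9% and 13.6% of lymphocytes drawn the same way. In monocytes the ratio was 1.58 (1.53 to 1.62). Of its UMIs 54.4% in the female and 55.0% in the male library lay in 5 cells. The other 6 macrophage markers outside the rule had 10 UMIs in female and 21 in male neutrophils, of which Csf1r supplied 6 and 13. The source of the Apoe UMIs was not tested.

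The 7 genes lower in female neutrophils were Egr1, Camp, Ccnl1, Fosb, Rgs2, Ptgs2 and Ltf. Egr1, a growth response factor, stood at 759 CPM (570 to 990) in female and 2650 CPM (2313 to 3023) in male neutrophils, a ratio of 0.286 (0.209 to 0.387). It was found in 20 of 39 and 33 of 45 cells, or 30.4% and 56.2% at 500 UMIs. Fosb had a ratio of 0.362 (0.228 to 0.559), Ccnl1, a cyclin of splicing complexes, 0.336 (0.172 to 0.619), and Rgs2, a brake on G protein signals, 0.399 (0.269 to 0.582). Monocytes gave ratios of 0.600 (0.465 to 0.775) for Egr1, 0.471 (0.333 to 0.666) for Fosb, 0.742 (0.654 to 0.842) for Rgs2 and 0.969 (0.759 to 1.24) for Ccnl1, and the intervals of the first 3 lay below 1 in monocytes too. Fos and Junb had ratios (CPM + 50) of 0.77 and 0.712 and did not pass the fold. Ptgs2, the inducible cyclooxygenase, stood at 394 and 895 CPM, with 78.6% and 78.7% of its UMIs in 5 cells of each library. Its ratio (CPM + 50) turned from 0.469 to 1.02 with a mitochondrial ceiling of 5% and was 0.699 without the richest cell of each library. With at least 10 or 50 UMIs of S100a8 and S100a9 it was 0.553 or 0.531 and missed the fold. Ltf (0.547) missed it with the 5% ceiling. With no C1q UMI allowed, Tmsb10 (1.14), Ptgs2 (0.720), Camp (0.555) and Ltf (0.701) no longer passed the fold.

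Camp and Ltf had ratios of 0.305 (0.244 to 0.379) and 0.461 (0.349 to 0.604), and these rest on the 4 granule-rich cells, 1 in the female and 3 in the male library. They leave out a further female cell, set aside for 6 UMIs of Cd79a, that held 169 UMIs of Camp and 109 of Ltf. That is more than the 105 and 76 UMIs of all 39 female neutrophils, so both ratios depend on this condition. The ratios with that cell were not computed. Without the 2250-gene cell Ltf had a ratio (CPM + 50) of 0.511 and no longer passed, while Pnrc1 (0.450) and Calm2 (0.496) did, which made 8 lower genes. Without the granule-rich cells the ratios (CPM + 50) of Camp and Ltf were 1.703 and 1.29, from 4 and 1 female and 1 and 0 male UMIs. Cxcr4 had a UMI in 56.4% of female neutrophils (22 of 39) and 84.4% of the males' (38 of 45), or 30.0% and 47.4% at 500 UMIs. It stood at 759 and 1349 CPM and did not pass the 2-fold rule. Csf3r, Cxcr2, Il1b and Mmp9 did not pass it either, with ratios (CPM + 50) of 0.831, 1.03, 1.10 and 0.708. Retnlg stood at 12649 CPM in female and 8572 CPM in male cells, a ratio (CPM + 50) of 1.47.

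**Figure D5:**
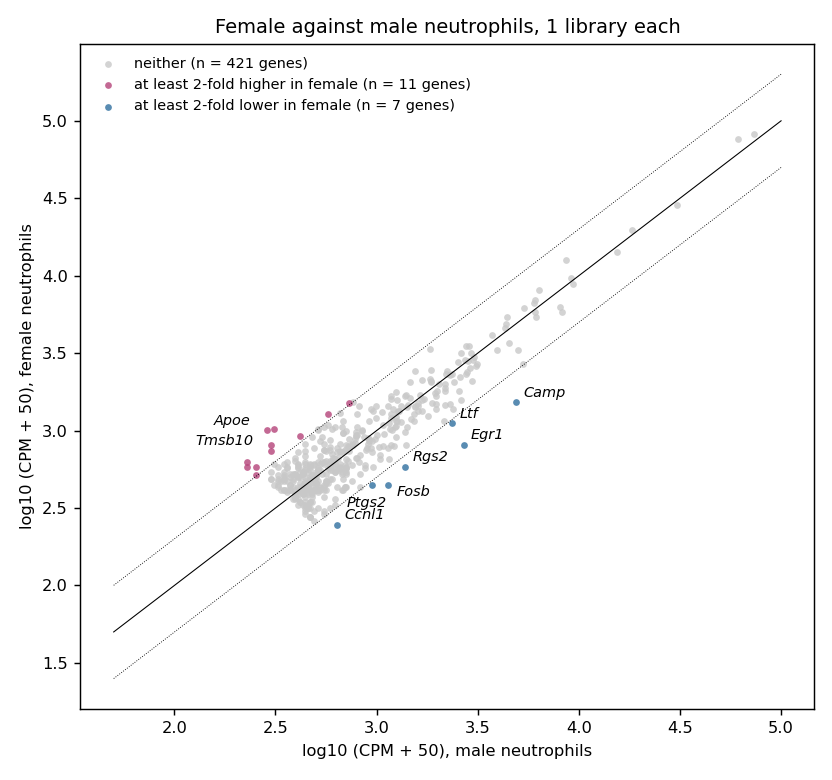
Log10 of CPM + 50 in male (horizontal axis) and female neutrophils (vertical axis) for 439 genes, with lines at equality (solid) and 2-fold (dotted). The 11 higher genes (pink) are Apoe, Tmsb10 and 9 ribosomal protein genes, and the 7 lower ones (blue) include Egr1, Fosb, Rgs2 and Camp.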

How the data were processed

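Live CD45+ cells of the adrenal gland were profiled with 3′ droplet libraries (v3.1 chemistry), 1 per sex. The deposited files hold raw UMI counts per gene and barcode: the authors aligned and counted with Cell Ranger (4.0.0 in the file header), mm10 being the build in the submitters' processing notes, and removed noise barcodes by the knee of the barcode ranks. The files held 3963 female and 2685 male barcodes with 16218309 and 9512670 UMIs. From them, 3817 and 2502 barcodes with at least 200 genes and at most 15% mitochondrial UMIs were kept. The members, gene lists and tests were chosen with earlier results of these data known. Counts were summed per class and library with Python 3.11.15, numpy 2.4.6 and scipy 1.17.1. CPM values carry exact Poisson, ratios exact conditional binomial and shares Clopper-Pearson intervals. Genes named individually were the 15 highest and 10 lowest against monocytes, the 8 highest and 8 lowest past the fold between the sexes (fewer where fewer passed), and list members, without ranking mitochondrial, ribosomal protein and sex-linked genes. Doublets were not removed: the automatic Scrublet threshold (scanpy 1.11.5) marked 8 of 6648 barcodes, which is too few to trust, and a fixed rate of 0.8% per 1000 barcodes, run as an alternative, marked 184, among them 1 neutrophil. Promoters came from the RefSeq table of GRCm38.p6, in which all 5 genes were matched by symbol. Scripts were tested on simulated counts. Alternatives varied the thresholds, filters, totals, constants and draws. Some genes met by the naming rule are not reported here. Every number rests on 1 library per sex.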

Additional observations from a re-analysis of the deposited data

How the results depend on the processing

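The female share stayed below the male share under all 7 alternatives, with a difference of -0.969 to -0.505 points, and the interval lay below 0 in 6 of them, the ceiling of 1.2% being the exception. All alternatives use the same libraries, so they do not test a difference between the sexes. By flow cytometry the paper reports similar neutrophil counts in females and males. The ceiling of 1.2% gave 4.89% female and 5.57% male, and asking for no C1q UMI lowered the shares to 0.734% female and 1.24% male. The conditions on C1q, Cd79a and Cd3e were not relaxed in any alternative. Against monocytes the count of higher genes was 92 with 50 CPM added and 82 with at least 50 UMIs per gene, and the count of lower genes was 118 with 50 CPM added and 768 with no C1q UMI. Between the sexes the count of genes higher in female was 4 with no C1q UMI, 3 with doublets removed, 4 without the cell of each library that holds most UMIs of the gene, and 32 with at least 20 UMIs per gene. The count of lower genes was 11 with 10 CPM added and 32 with at least 20 UMIs per gene. Ratios that changed direction were Ptgs2 (1.02 with a mitochondrial ceiling of 5%), Tmsb10 (0.826 with doublets removed), and Camp and Ltf (1.703 and 1.29 without granule-rich cells, an alternative added after the data had been seen). Shares of cells with a UMI depend on the draw by construction. With 1000 UMIs, reached by 33 of 39 female and 38 of 45 male neutrophils, Cxcr4 was in 48.2% and 66.1% and Rgs2 in 41.2% and 69.0%, against 24.2% and 46.9% for Rgs2 at 500. With no draw Cxcr4 was in 56.4% and 84.4%, Egr1 in 51.3% and 73.3%, Rgs2 in 56.4% and 82.2%, and female Cxcl2 in 51.3%. In each case the female share of Cxcr4, Egr1 and Rgs2 stayed below the male one. The comparison with monocytes without the single marked neutrophil was also added after the data had been seen. For changes other than those of construction the cause was not tested. No paired analysis was possible because each sex is 1 library. The depth, 71151 and 83762 neutrophil UMIs, means that a gene with no UMI may stand at up to 42.2 CPM in female and 35.8 CPM in male neutrophils.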

Other observations

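Of the 47 female and 48 male cells with at least 20 UMIs of S100a8 and S100a9, 8 and 3 were set aside by the other conditions, and each held at least 1 UMI of Csf3r, Cxcr2, Retnlg or Mmp9. In the female library 4 were set aside for C1q and 5 for Cd79a, with 1 cell in both counts, and in the male library 2 for C1q and 1 for Cd79a. One female cell held 1601 UMIs of S100a8 and S100a9, 169 of Camp, 273 of Ngp and 109 of Ltf, with 0 of Csf3r and Il1b, and was set aside for 6 UMIs of Cd79a. It also held 29 UMIs of Igkc and 27 of Cd74 among 6543. Another 3 cells held 53, 72 and 119 UMIs of C1q genes at 7303, 8544 and 7310 UMIs in all, beside 6, 7 and 2 UMIs of Csf3r. A female cell with 458 UMIs of S100a8 and S100a9, 39 of Retnlg and 12 of Il1b was set aside for a single Cd79a UMI. These cells are in neither the neutrophils, the monocytes nor the lymphocytes above, but they count among the rest and in the totals behind the shares, and the first of them holds 169 of the 172 Camp UMIs of the female rest. Why they carry both kinds of transcript was not tested.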
